A study of Mus musculus with 9 samples.

Results

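The ErbB receptors and their EGF family ligands were followed as 10 genes across 3 sorted keratinocyte populations of mouse back skin. The 10 were chosen by name, as the rows of the deposited table whose Ensembl identifiers carry these symbols, out of 55357 identifiers in all. They comprised the receptors Egfr (ENSMUSG00000020122), Erbb2 (ENSMUSG00000062312), Erbb3 (ENSMUSG00000018166) and Erbb4 (ENSMUSG00000062209). The ligands were Areg (ENSMUSG00000029378), Ereg (ENSMUSG00000029377), Hbegf (ENSMUSG00000024486), Tgfa (ENSMUSG00000029999), Btc (ENSMUSG00000082361) and Epgn (ENSMUSG00000035020). A filter on low counts left 15046 genes to be tested, among them 9 of the 10 members, and Erbb4 was the member that did not pass it.

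Polyadenylated RNA was sequenced from cells of C57BL/6 mice of genotype TNC-CREER; tdTomato at postnatal day 60. In every group the mice had received tamoxifen, at 100 µg per g of body weight on days 51 and 52, which activates the Cre recombinase and so the red reporter in cells that express it. Skin was dissociated with trypsin and sorted, and all 3 populations were positive for EPCAM, an epithelial adhesion molecule, and for integrin α6 of basal keratinocytes. Touchdome cells were also positive for SCA1 and for the reporter, IFE cells (interfollicular epidermis) were positive for SCA1 and negative for the reporter, and HF cells (hair follicle) were negative for both. The Touchdome group is therefore defined by activity of the Cre driver on the days of tamoxifen. Each group had 3 libraries. Whether a group's libraries are from different mice is not stated in the labels, so a p-value here reflects only how far these libraries scatter, which can be technical.

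EGF family ligands are made as membrane-anchored precursors and are released by cell-surface proteases such as ADAM17. They bind receptor tyrosine kinases of the ErbB family, which pair up and signal through RAS and the ERK kinases. In skin this pathway is known for driving keratinocyte proliferation and migration, for holding back differentiation and for its part in hair follicle development. EGFR binds amphiregulin (Areg), epiregulin (Ereg), HB-EGF, TGFα, betacellulin (Btc) and epigen (Epgn). ERBB2 has no known soluble ligand and acts as a partner, ERBB3 binds neuregulins but is a weak kinase, and ERBB4 binds neuregulins and several of the EGFR ligands.

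Epgn, Ereg, Areg and Btc lie next to one another, in that order, on mouse chromosome 5 in the RefSeq annotation. The sequences upstream of Epgn, Areg and Btc are shown because Epgn was called lower in HF than in IFE and its neighbours were not, and that of Egfr because it differed most of the tested receptors. They are from RefSeq, build GRCm38.p6, 5′ to 3′ on the gene's strand, ending just before the first base of the earlier of the annotated transcript starts. The windows were chr5:91027267-91027463 (plus strand) for Epgn, chr5:91139349-91139598 (plus strand) for Areg, chr5:91402995-91403244 (minus strand) for Btc and chr11:16751953-16752202 (plus strand) for Egfr. Capitals mark matches to TATAAA, the core of a TATA box, and to GGGCGG, a GC box, searched on both strands. In Egfr the GC box is on the opposite strand and reads CCGCCC.
Epgn: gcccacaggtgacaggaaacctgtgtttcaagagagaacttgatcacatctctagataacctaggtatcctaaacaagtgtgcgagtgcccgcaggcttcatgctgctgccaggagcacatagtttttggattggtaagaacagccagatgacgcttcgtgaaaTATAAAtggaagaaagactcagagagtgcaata
Areg: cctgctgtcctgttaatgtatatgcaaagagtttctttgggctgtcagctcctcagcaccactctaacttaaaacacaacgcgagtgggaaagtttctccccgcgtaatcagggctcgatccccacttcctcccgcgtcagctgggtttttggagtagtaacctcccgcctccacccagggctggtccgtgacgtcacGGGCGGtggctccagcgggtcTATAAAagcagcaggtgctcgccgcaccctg
Btc: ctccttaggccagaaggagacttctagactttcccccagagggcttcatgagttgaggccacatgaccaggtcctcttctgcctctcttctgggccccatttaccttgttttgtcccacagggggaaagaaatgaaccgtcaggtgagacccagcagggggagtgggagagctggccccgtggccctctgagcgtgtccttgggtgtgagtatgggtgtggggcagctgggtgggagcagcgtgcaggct
Egfr: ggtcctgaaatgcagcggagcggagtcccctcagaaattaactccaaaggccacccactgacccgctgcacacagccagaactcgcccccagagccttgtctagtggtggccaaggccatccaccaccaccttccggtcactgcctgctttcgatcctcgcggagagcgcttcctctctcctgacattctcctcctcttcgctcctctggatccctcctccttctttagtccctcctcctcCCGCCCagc

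TATAAA began 33 bases before the end of the Epgn sequence and 31 bases before the end of the Areg sequence. The Epgn sequence ends at a transcript start of the GENCODE annotation, 53 bases before the RefSeq start. Measured from the RefSeq start, its TATAAA began at -86, against -31 in Areg. The Areg sequence also held GGGCGG, which began 52 bases before its end. The Btc sequence held neither motif, and the Egfr sequence held the GC box only. Among all 32851 promoter windows of 300 bases, 13.6% held TATAAA, 35.7% held GGGCGG and 7.81% held TGANTCA, the core of an AP-1 site. These windows run from 250 bases before to 50 after the RefSeq start and are longer than the printed sequences. None of the 7 members with a window held TGANTCA. These matches describe the letters of the windows and nothing about binding.

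The libraries held between 9295059 and 28249763 counts each. On the first principal component, which carried 59.2% of the variance, HF libraries lay between 89.2 and 98.7 and IFE libraries between -75.4 and -57.5. Touchdome replicate 3, at -2.86, stood apart from the other Touchdome libraries, at -37.6 and -40.7. Of the sorting markers, Ly6a, which encodes SCA1, followed its gate. It averaged 125 CPM in Touchdome, 153 in IFE and 1.08 in HF (CPM, counts scaled to the normalized library size). Itga6, gated positive in every group, was 2.69-fold lower in HF than in IFE (edgeR adjusted p = 2.37e-05). Epcam, also gated positive, was 1.87-fold higher in HF than in IFE (edgeR adjusted p = 0.00718). Tnc, whose name the Cre driver carries, was 10.1-fold higher in HF than in IFE (edgeR adjusted p = 0.00137), though neither was sorted as positive for the reporter. Summed over 6 fibroblast markers, CPM lay between 0.844 and 2.95 in IFE, between 45.3 and 90.2 in Touchdome and between 62.2 and 87.1 in HF, with Lum at 0 in Touchdome and HF. The markers did not move together between Touchdome and HF. Dcn was higher in Touchdome (log2 fold change 9.54, edgeR adjusted p = 2.58e-06) and Col1a2 was lower (-1.83, adjusted p = 0.00126). Col1a1, Col3a1 and Pdgfra were not called there. The sum of 6 melanocyte markers lay between 9.92 and 14.3 in IFE, where Tyr was at 0, between 16 and 50.4 in Touchdome and between 98.6 and 129 in HF. That sum was carried by Mitf, with a mean of 41.4 CPM over all libraries beside 5.04 for Dct. Mitf was 9.90-fold higher in HF than in IFE (edgeR adjusted p = 6.53e-05) and 6.47-fold lower in Touchdome than in HF (0.000335). Dct and Tyrp1 were called higher in HF than in IFE. Between Touchdome and HF, Dct, Pmel and Tyrp1 were not called. The highest Touchdome sum of the fibroblast and of the melanocyte list was in replicate 3. The sum of 4 touch dome markers lay between 1795 and 2283 in Touchdome, 271 and 329 in IFE and 1771 and 2020 in HF. Against HF, Tnc was called higher in Touchdome, Gli1 and Cd200 lower, and Krt17 was not called. The sum of 4 basal keratinocyte markers lay between 34647 and 38898, 44585 and 49162, and 21796 and 22718 in the same order. Krt5 and Krt14 were called lower in HF than in IFE, and Trp63 and Col17a1 were not called. The sum of 4 suprabasal keratinocyte markers was lowest in HF (1016 to 1284), intermediate in IFE (3783 to 5323) and highest in Touchdome (5620 to 7598). That sum was carried by Krt1 and Krt10: Ivl was called higher in HF than in IFE (2.78-fold, edgeR adjusted p = 0.00473), and Lor was not called. Of the bulge markers, Cd34 lay between 20.1 and 98.8 CPM in Touchdome, between 1.42 and 2.54 in IFE and at 712 or more in HF, and Lhx2 between 23.7 and 77.3, between 5.42 and 6.89 and at 553 or more. Both were highest in Touchdome replicate 3 of the Touchdome libraries. Lgr5 and Postn also lay higher in every Touchdome library than in IFE, without a call. Krt15, the most abundant of the 5 with a mean of 7610 CPM, went the other way. Every Touchdome library lay below IFE, uncalled (log2 fold change -0.46, edgeR adjusted p = 0.276). Its HF and IFE libraries overlapped (0.08, edgeR adjusted p = 0.729). Summed over the 5, no Touchdome library exceeded 7235 CPM, whereas IFE started at 7660 and HF at 14222. The sum of 6 Merkel cell markers lay between 1.33 and 9.53 in Touchdome, between 0.114 and 0.316 in IFE and between 1.90 and 2.82 in HF. Krt8 was called higher than in IFE in Touchdome (log2 fold change 5.37, edgeR adjusted p = 0.0225) and in HF (4.83, adjusted p = 0.003). Krt18, not tested, lay higher in every Touchdome library than in IFE and HF. Atoh1 and Sox2 were at 0 in every library. Sebaceous markers (4 genes) summed to 562 to 1305 in HF and 203 to 275 elsewhere, and Langerhans cell and macrophage markers (5 genes) to 49.6 to 328 with overlap between groups. T cell, endothelial and Schwann cell sums were at most 7.16, 2.56 and 6.23, with Cdh5, Kdr and Tie1 at 0 in IFE. The part of these other cells in the results was not tested.

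Without pairing of libraries, no tested member was called different between Touchdome and IFE cells, and with it Epgn was lower in Touchdome. HF cells differed from both in Egfr, Erbb3 and Epgn, and from Touchdome also in Erbb2. Between Touchdome and IFE, edgeR's quasi-likelihood test called 0 of 9 members higher and 0 lower at an adjusted p under 0.05, beside 1.22% higher and 0.0798% lower among all genes tested. At an unadjusted p under 0.05, 1 member passed, Epgn, and the share of all genes at that limit was not counted. DESeq2 called 0 members, beside 446 higher and 84 lower of all 15046 genes. Touchdome and IFE libraries of the same number deviated together, so these groups were also fitted with the replicate number as a block. With the block over all 9 libraries, 0 members were called higher and 1 lower (Epgn), beside 1.87% and 0.445% of all genes. With the block and only Touchdome and IFE in the fit, a setting chosen after the data were seen, 0 were called higher and 2 lower (Epgn and Hbegf), beside 2.64% and 0.952%. Between Touchdome and HF, 3 members were called higher in Touchdome and 1 lower, beside 11.8% and 12.8% of all genes. The same 4 had libraries that did not overlap, beside 21.2% higher and 22.2% lower of all genes. Between HF and IFE, 1 member was called higher in HF and 2 lower, beside 17.1% and 16% of all genes. The median log2 fold change of the members was 0.12, 0.05 and 0.45 in the 3 comparisons, and that of all genes rounded to 0.00 in each. The comparisons share libraries pairwise, so they are not independent of one another.

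**Figure D1:**
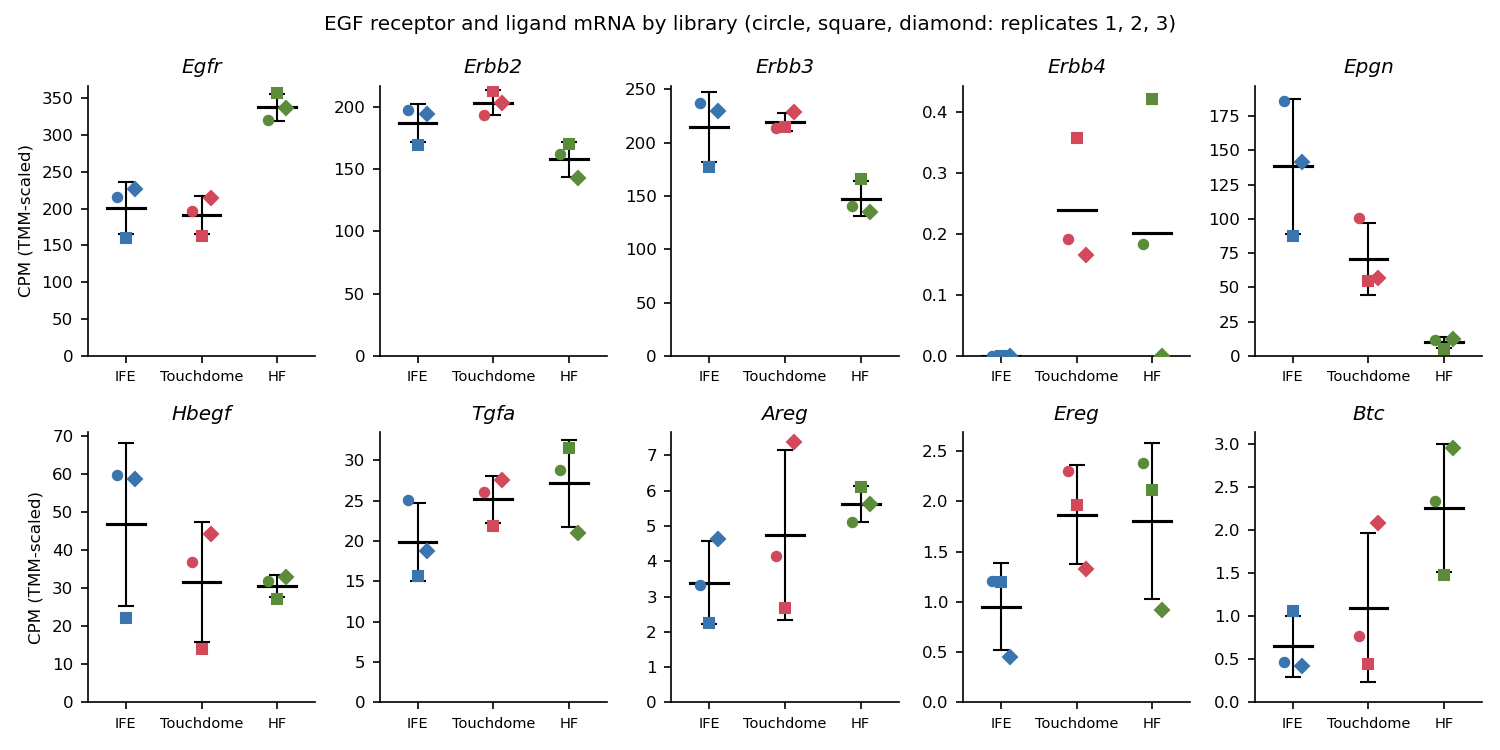
Normalized CPM (linear axes from 0) of the 10 genes in each library of Touchdome, IFE and HF; circles, squares and diamonds are replicates 1, 2 and 3, and bars give the mean and SD except for Erbb4, which has 0 counts in some libraries. Egfr is higher in all 3 HF libraries than in the other 6, and Epgn is lower in all 3.

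Egfr, the receptor for all 6 ligands, had the largest difference among the 3 tested receptors. It was measured at 197, 163.2 and 214 CPM in Touchdome, at 215.8, 160.5 and 226.1 in IFE and at 319.9, 356.5 and 337 in HF. All 3 HF libraries lay above every Touchdome and IFE library, and the Touchdome and IFE libraries overlapped. Egfr was 1.68-fold higher in HF than in IFE (log2 fold change 0.75 ± 0.15 SE, edgeR adjusted p = 0.00152). It was 1.76-fold lower in Touchdome than in HF (log2 fold change -0.82 ± 0.15, edgeR adjusted p = 0.00118). The Touchdome and IFE levels differed by less than the spread between libraries (log2 fold change -0.07, 95% interval -0.38 to 0.25).

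Erbb2 and Erbb3, the partner receptors, moved the other way and by less. Erbb3 was measured at 213.5, 214.6 and 228.7 CPM in Touchdome, at 237.1, 177.3 and 229.4 in IFE and at 140.6, 165.9 and 135.3 in HF. The 3 HF libraries were the lowest of the 9. Erbb3 was 1.49-fold higher in Touchdome than in HF (log2 fold change 0.57 ± 0.13, edgeR adjusted p = 0.00623) and 1.46-fold lower in HF than in IFE (-0.54 ± 0.13, edgeR adjusted p = 0.00625). Touchdome and IFE differed by a log2 fold change of 0.03 with a 95% interval of -0.25 to 0.31.

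Erbb2 was measured at 193, 212.9 and 203.3 CPM in Touchdome, at 197.7, 169 and 193.8 in IFE and at 161.7, 169.8 and 142.5 in HF. Touchdome libraries all lay above the HF libraries, and a single IFE library, replicate 2, fell within the HF range. Erbb2 was 1.29-fold higher in Touchdome than in HF (log2 fold change 0.36 ± 0.11, edgeR adjusted p = 0.0319). That call was lost without Touchdome replicate 2 (adjusted p = 0.104), Touchdome replicate 3 (0.0702), HF replicate 1 (0.0778) or HF replicate 3 (0.137), with log2 fold changes between 0.29 and 0.38. The difference between HF and IFE was not called (-0.24, 95% interval -0.49 to 0.00, edgeR adjusted p = 0.118), though it passed without IFE replicate 2 (adjusted p = 0.0407). Touchdome and IFE differed by 0.12 (interval -0.12 to 0.36, edgeR adjusted p = 0.821).

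Erbb4, the other neuregulin receptor, was close to undetected. It had 3, 4 and 2 counts in the Touchdome libraries, 0 in each IFE library and 4, 4 and 0 in the HF libraries. Pooled over a group, this is 0.232 CPM in Touchdome and 0.172 in HF, and the limit that a count of 0 allows over the IFE group (3 counts) is 0.0503 CPM. The pooled value was 4.60-fold that limit in Touchdome and 3.41-fold in HF, from sums of 9 and 8 counts. These folds leave out the counting error of the 9 and 8 counts, so the true folds can be smaller. No test was made on so few counts, and the limit covers only the counting error of the 0 in IFE. With bulk RNA, fewer cells that express a gene and less of its RNA per cell cannot be told apart, here or for any other member.

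**Figure D2:**
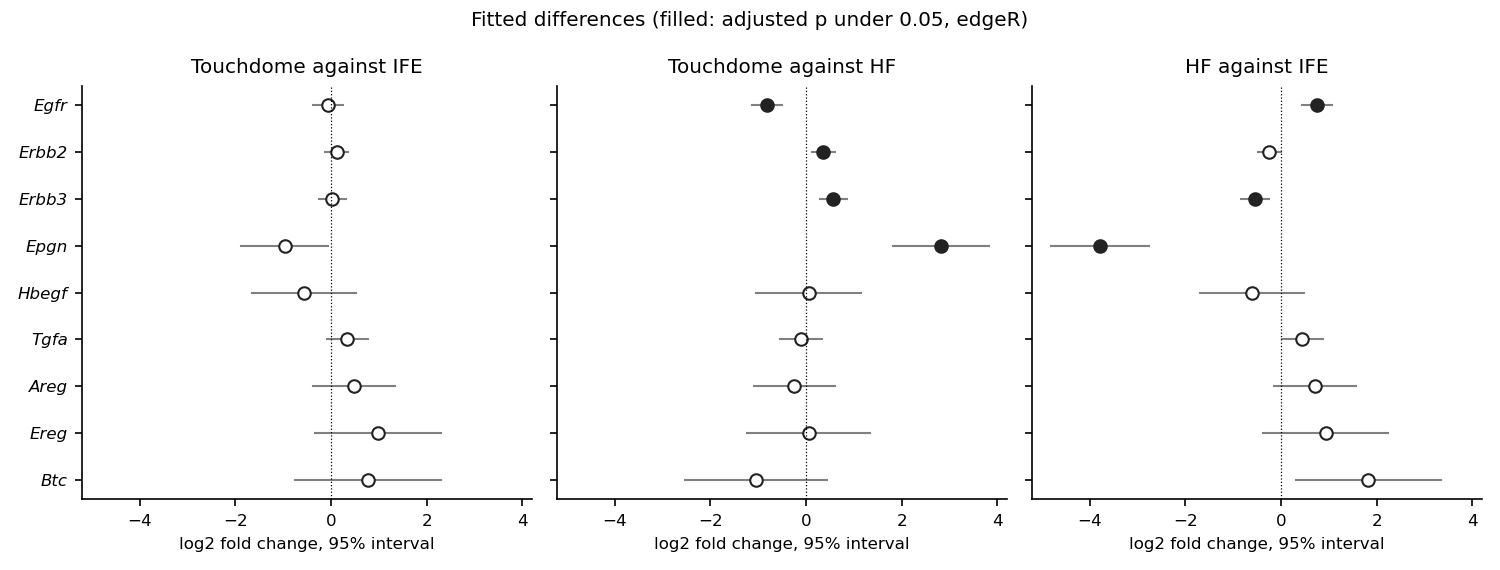
Log2 fold changes of the 9 tested genes with 95% intervals in the comparisons of Touchdome with IFE, Touchdome with HF and HF with IFE; filled symbols passed an edgeR adjusted p under 0.05. The fit has no replicate block, no symbol is filled for Touchdome against IFE, and Epgn lies farthest from 0 in the comparisons with HF.

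Epgn, which encodes the EGFR ligand epigen, had the largest fold differences of the 9 tested members. It was measured at 101, 54.35 and 56.87 CPM in Touchdome, at 186.3, 87.3 and 141.4 in IFE and at 11.97, 5.058 and 12.39 in HF. Every HF library was far below the other 6, and Touchdome replicate 1 lay above IFE replicate 2, so Touchdome and IFE overlapped. Epgn was 13.8-fold lower in HF than in IFE (log2 fold change -3.78 ± 0.45, edgeR adjusted p = 0.000317) and 7.05-fold higher in Touchdome than in HF (2.82 ± 0.43, edgeR adjusted p = 0.00197). Both calls were kept in each of the 19 alternative settings, of which 2 were chosen after the data were seen, with adjusted p of at most 0.00214 and 0.0103. Touchdome had a lower mean than IFE (70.7 ± 26.2 against 138 ± 49.6 CPM, SD, n = 3), and this difference failed the correction without pairing. Its log2 fold change was -0.97 with a 95% interval of -1.87 to -0.06 (edgeR adjusted p = 0.427). Touchdome was the lower library in each of the 3 same-numbered pairs, and the replicate block called the difference (-0.94, edgeR adjusted p = 0.0182, and -0.95, adjusted p = 0.00158 with only Touchdome and IFE in the fit).

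The nearest genes on either side of Epgn were not called different in any of the 3 comparisons without pairing. Mthfd2l, a mitochondrial folate enzyme gene on its other side, averaged 9.49 CPM in Touchdome, 8.05 in IFE and 7.30 in HF, and its difference between HF and IFE was not called (-0.15, edgeR adjusted p = 0.682). Ereg, Areg and Btc had higher means in HF than in IFE, and none of these differences was called. Parm1, beyond Btc, was called in the same directions as Epgn: it was lower in HF than in IFE (-0.98, edgeR adjusted p = 0.0066) and higher in Touchdome than in HF (0.88, edgeR adjusted p = 0.0166).

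Btc, which encodes betacellulin, was scarce. It had 12, 5 and 25 counts in Touchdome (0.767, 0.447 and 2.08 CPM), 9, 15 and 11 in IFE (0.473, 1.05 and 0.417 CPM) and 51, 14 and 45 in HF (2.33, 1.47 and 2.95 CPM). All HF libraries lay above all IFE libraries, and Touchdome replicate 3 lay within the HF range. The 3.54-fold difference between HF and IFE did not pass the correction (log2 fold change 1.82, 95% interval 0.31 to 3.33, edgeR adjusted p = 0.0622). It passed without Touchdome replicate 2 or IFE replicate 2, with DESeq2, and with only HF and IFE in the fit. The adjusted p ran from 0.0264 to 0.177 over all alternatives.

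Areg and Ereg, the genes for amphiregulin and epiregulin, were also low. Areg was measured at 4.16, 2.68 and 7.39 CPM in Touchdome, at 3.31, 2.25 and 4.62 in IFE and at 5.12, 6.11 and 5.64 in HF. HF libraries all exceeded the IFE libraries, while the Touchdome libraries ran from the IFE range to above the HF range. The HF and IFE difference was not called (log2 fold change 0.71, 95% interval -0.14 to 1.56, edgeR adjusted p = 0.190).

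Ereg was measured at 2.30, 1.97 and 1.33 CPM in Touchdome, at 1.21, 1.20 and 0.454 in IFE and at 2.38, 2.11 and 0.917 in HF, from 12 to 52 counts per library. It was the single tested member whose Touchdome libraries all lay above the IFE libraries, as did 8.32% of all genes tested, and 0 tested members had Touchdome libraries all below IFE, beside 6.27%. Its log2 fold change of 0.98 had a 95% interval of -0.33 to 2.30 (edgeR adjusted p = 0.656). Of the 9 members, 3 had HF libraries all above the IFE libraries (Egfr, Areg and Btc) and 2 all below (Erbb3 and Epgn), beside 24.6% and 23.1% of all genes.

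Tgfa, which encodes TGFα, was nearly even across the populations. It was measured at 26.1, 21.9 and 27.5 CPM in Touchdome, at 25.1, 15.6 and 18.8 in IFE and at 28.8, 31.5 and 21.0 in HF. All 3 groups overlapped. The HF and IFE difference was a log2 fold change of 0.45 (95% interval 0.01 to 0.88, edgeR adjusted p = 0.107), which passed without IFE replicate 1 or without HF replicate 3 (lowest adjusted p = 0.0292). Touchdome differed from IFE by 0.34 (interval -0.09 to 0.77) and from HF by -0.10 (interval -0.54 to 0.33).

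Hbegf, the gene for heparin-binding EGF, varied widely within Touchdome and IFE. It was measured at 36.9, 14.0 and 44.2 CPM in Touchdome, at 59.7, 22.1 and 58.6 in IFE and at 31.8, 27.3 and 32.8 in HF. Replicate 2 was the lowest library of both Touchdome and IFE, and the HF libraries lay close together. No difference was called without pairing: the log2 fold change was -0.56 for Touchdome against IFE (95% interval -1.65 to 0.52), 0.05 for Touchdome against HF (-1.04 to 1.15) and -0.61 for HF against IFE (-1.70 to 0.47). Touchdome was the lower library in each of the 3 same-numbered pairs with IFE. The replicate block over all libraries did not call that difference (-0.57, edgeR adjusted p = 0.390), and the block with only Touchdome and IFE in the fit did (-0.57, adjusted p = 0.0298).

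The low Hbegf libraries were also low in immediate early genes, such as Fos and Egr1, which are transcribed within minutes of growth factor signalling or of stress. The summed level of 18 such genes was 23623, 14958 and 32313 CPM in Touchdome, 40119, 25151 and 46889 in IFE and 34732, 33404 and 36442 in HF. Replicate 2 was lowest for all 18 genes in Touchdome and in IFE, and for 10 of 18 in HF. Among the 10 members, replicate 2 was the lowest for 6 in Touchdome, 7 in IFE and 3 in HF. The share of all genes lowest in replicate 2 was not counted, so these counts cannot be set against it. Over all tested genes, IFE replicate 2 differed from IFE replicates 1 and 3 by a chi-square per degree of freedom of 71.3 and 67.7. Between IFE replicates 1 and 3 it was 20.7. Without the replicate 2 libraries, a setting chosen after the data were seen, Hbegf was lower in HF than in IFE (log2 fold change -0.88, edgeR adjusted p = 0.00121). In the same setting the difference of Epgn between Touchdome and IFE stayed uncalled (-1.05, edgeR adjusted p = 0.194). The part of the immediate early level in these differences was not tested.

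**Figure D3:**
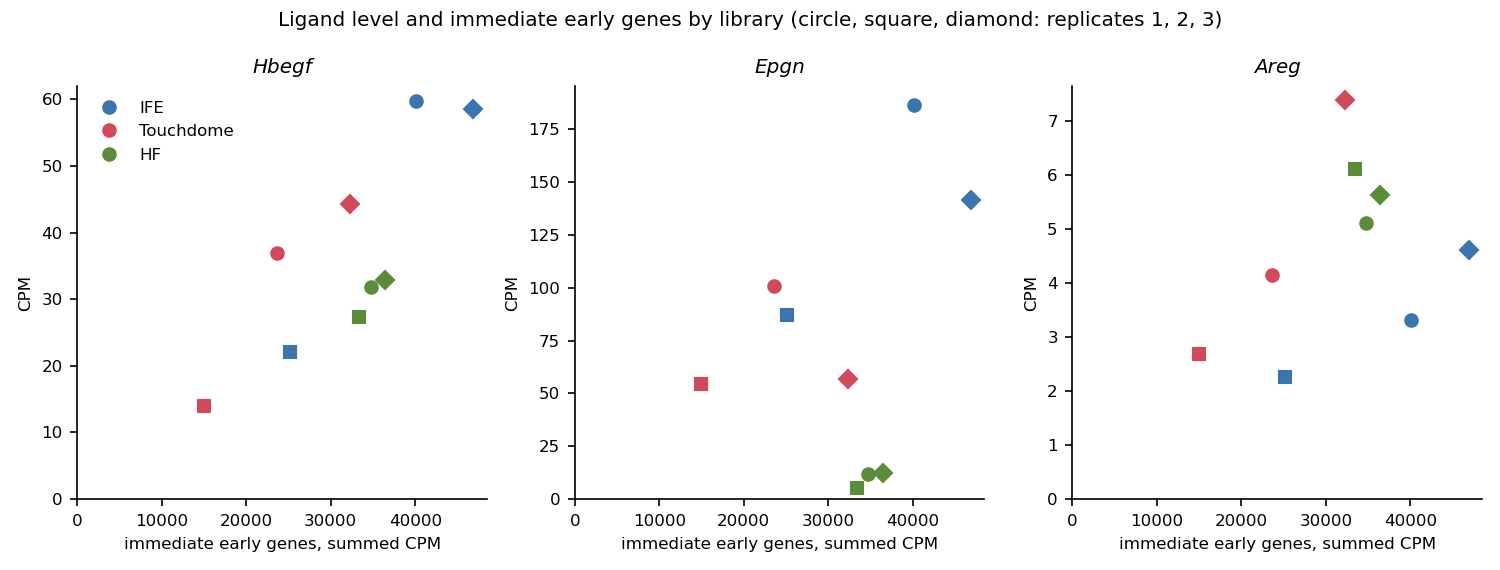
Normalized CPM of Hbegf, Epgn and Areg in each library against the summed CPM of 18 immediate early genes, with symbol shape for the replicate number and colour for the population. In Touchdome and in IFE, replicate 2 has the group's lowest sum, 14958 and 25151, and its lowest Hbegf value, 14.0 and 22.1.

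Levels of different genes can be compared on the deposited TPM scale, which corrects for transcript length. Erbb2, Erbb3 and Egfr had TPM of the same order, and Erbb4 did not contribute. Egfr averaged 47.2 ± 18.0 TPM in Touchdome, 45.4 ± 16.3 in IFE and 77.5 ± 8.28 in HF (SD, n = 3 here and below). Erbb2 averaged 75.3 ± 8.15, 62.4 ± 10.6 and 62.7 ± 7.14, and Erbb3 averaged 61.0 ± 2.96, 54.6 ± 11.4 and 43.1 ± 4.91. By mean TPM the order was Erbb2, Erbb3, Egfr in Touchdome and IFE, and Egfr, Erbb2, Erbb3 in HF. In IFE the ranges of the 3 receptors overlapped, so that order does not exceed the spread. In Touchdome Erbb2 lay above Erbb3 in every library of both while Egfr overlapped Erbb3, and in HF the ranges of the 3 receptors did not overlap.

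The summed receptor TPM was similar in the 3 populations, at 183.6 ± 20.3 in Touchdome, 162 ± 38.1 in IFE and 183.4 ± 3.21 in HF. Egfr made up 25.3% ± 7.17 of it in Touchdome, 27.3% ± 4.32 in IFE and 42.3% ± 4.86 in HF. The lowest HF share, 38.8%, lay above the highest Touchdome share, 32.3%, and the highest IFE share, 30.1%. The share of Erbb3 was 33.4% in Touchdome, 33.8% in IFE and 23.5% in HF. With 3 libraries against 3, an exact two-sided permutation test cannot go below p = 0.1, and over the 30 shares compared the smallest adjusted value was 0.158.

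The ligand genes were less even than the receptors. Their summed TPM was 122 ± 38.0 in Touchdome, 188 ± 76.8 in IFE and 66.2 ± 1.62 in HF, where the 3 libraries lay between 64.7 and 67.9. Epgn was the most abundant ligand transcript in Touchdome (77.8 ± 27.1 TPM) and IFE (140.6 ± 60.1), and Hbegf in HF (32.4 ± 3.15). Epgn was 64.1% ± 9.43 of ligand TPM in Touchdome, 74.5% ± 3.53 in IFE and 17.1% ± 6.03 in HF, and the HF shares (10.2% to 20.7%) did not overlap with the others. Hbegf was 19.9% ± 6.93, 18.3% ± 3.61 and 48.8% ± 3.97.

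Tgfa and Areg followed at lower TPM. Tgfa averaged 9.51, 6.92 and 10.8 TPM in Touchdome, IFE and HF, and Areg averaged 7.77, 5.05 and 9.68. Ereg averaged 0.767, 0.357 and 0.783 TPM, and Btc 0.803, 0.400 and 1.303. Thus HF had the lowest ligand sum while its Tgfa, Areg and Btc means were the highest of the 3 populations, and those of the latter 3 genes were not called different in any comparison.

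**Figure D4:**
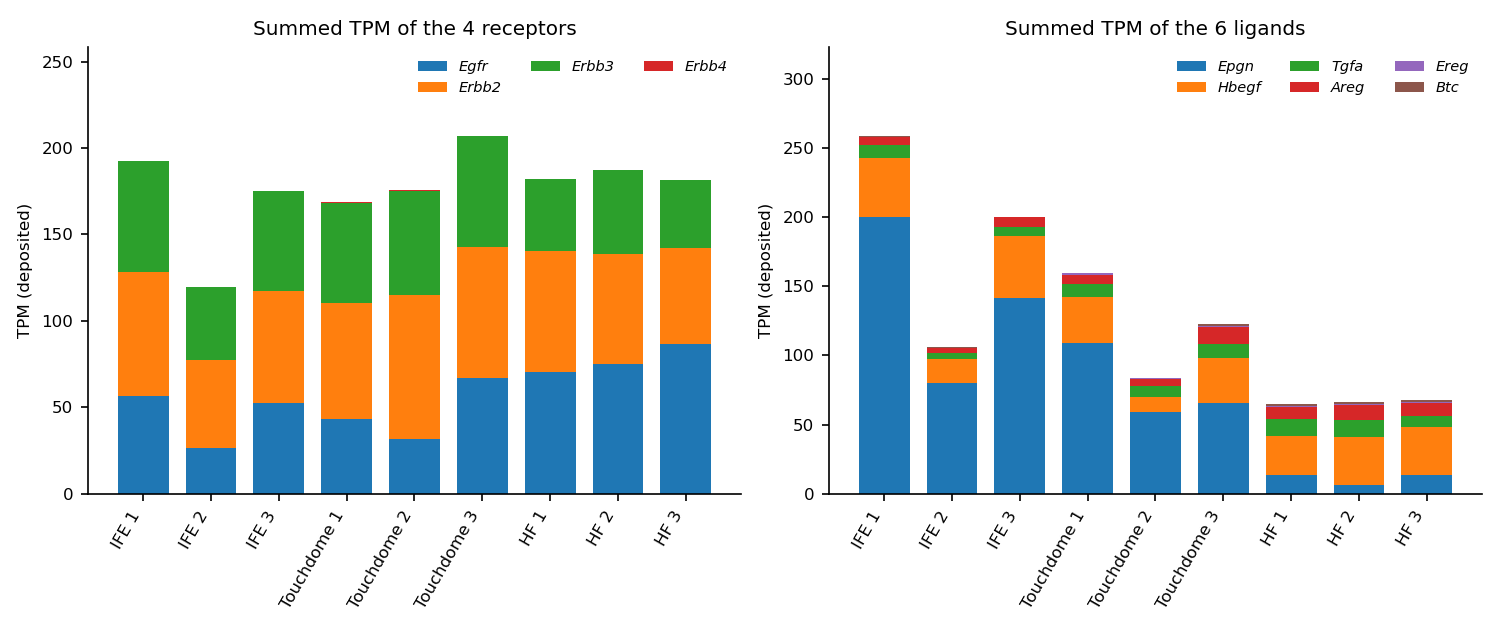
Deposited TPM of the receptor genes and of the ligand genes stacked for each library of Touchdome, IFE and HF. Receptor sums lie at similar heights, while Epgn fills most of the ligand stack in Touchdome and IFE and a small share, 10.2% to 20.7%, in HF.

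The calls for the receptors depended on the unit. On log2(TPM + 1), limma gave a log2 difference for Egfr of 0.83 between HF and IFE (adjusted p = 0.0673) and of -0.76 between Touchdome and HF (adjusted p = 0.107). For Erbb3 it gave 0.50 between Touchdome and HF (limma adjusted p = 0.0540) and -0.32 between HF and IFE (0.176), and for Erbb2 0.26 between Touchdome and HF (0.285). Epgn stayed called on that scale (limma adjusted p = 5.29e-05 between HF and IFE and 0.000447 between Touchdome and HF). On that scale the median of all genes was shifted by 0.19 between HF and IFE, by 0.13 between Touchdome and IFE and by -0.06 between Touchdome and HF. Limma on log2 CPM kept the Egfr and Erbb3 calls (for Egfr, limma adjusted p = 0.00146 between HF and IFE and 0.00119 between Touchdome and HF).

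Estimated transcript length enters the TPM and differed between libraries for some members. The count per unit of TPM, relative to the median gene of the library, ranged 1.60-fold over the 9 libraries for Egfr, from 2.30 in Touchdome replicate 3 to 3.69 in Touchdome replicate 2. It ranged 1.66-fold for Hbegf, 2.28-fold for Btc and 1.18-fold for Epgn, beside a median of 1.22-fold over 10027 genes. A range at least as wide as that of Egfr was seen in 15.1% of those genes.

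Other genes of the pathway were described by lists, which share some genes such as Spry4, and in the comparison of Touchdome with IFE no listed gene was called by edgeR without pairing. Of 69 listed genes tested, 14 had an unadjusted p under 0.05 in that comparison, and the share of all genes at that limit was not counted. DESeq2 called 0 listed genes higher and 3 lower, beside 446 and 84 of all 15046 genes. With the replicate block, 0 were called higher and 7 lower, beside 1.87% and 0.445% of all genes, and 6 of the 7 were immediate early genes. With only Touchdome and IFE in the blocked fit 12 were called lower, beside 0.952% of all genes, and 11 of the 12 were immediate early genes. The neuregulins, ligands of ERBB3 and ERBB4, and Egf formed a list of 5 of which 4 were tested. Of these, in Touchdome against HF 1 was called higher and 1 lower, and in HF against IFE 1 was higher and 2 lower, beside the shares of all genes given above (11.8% and 12.8%, and 17.1% and 16%). Nrg3 had no count in any library.

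Nrg1 was measured at 7.42, 2.50 and 1.91 CPM in Touchdome, at 5.84, 3.02 and 3.98 in IFE and at 0.868, 0.843 and 0.393 in HF. The HF libraries were the lowest of the 9. Nrg1 was 6.07-fold lower in HF than in IFE (log2 fold change -2.60, edgeR adjusted p = 0.004) and 5.63-fold higher in Touchdome than in HF (2.49, adjusted p = 0.0073), the latter lost without Touchdome replicate 1 (adjusted p = 0.0522). Nrg4 went the other way, with 2.79 CPM in Touchdome, 2.38 in IFE and 6.96 in HF on average. It was higher in HF than in IFE (1.53, edgeR adjusted p = 0.00977), and its lower level in Touchdome than in HF (-1.32, adjusted p = 0.0289) was lost without Touchdome replicate 1, Touchdome replicate 3, HF replicate 2 or HF replicate 3 (highest adjusted p = 0.118). Nrg2 was lower in HF than in IFE (-1.57, edgeR adjusted p = 0.0133), a call lost without HF replicate 1 or HF replicate 3 (highest adjusted p = 0.0610). Between Touchdome and IFE, the log2 fold change was -0.94 for Nrg2 (edgeR adjusted p = 0.443) and 0.21 for Nrg4 (0.937).

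Genes for ligand shedding and trafficking showed small differences. Of 8 tested, Touchdome against HF gave 3 higher and 1 lower, beside 11.8% and 12.8% of all genes, and HF against IFE gave 1 higher and 3 lower, beside 17.1% and 16%. With single libraries left out, the 3 higher moved between 0 and 3, and the 1 lower became 0 in 6 of 9 cases. Adam17, which encodes a protease that releases EGF family ligands, averaged 97.4 ± 7.35 CPM in Touchdome, 102 ± 7.93 in IFE and 74.9 ± 7.57 in HF. It was lower in HF than in IFE (log2 fold change -0.45, edgeR adjusted p = 0.00917, lost without HF replicate 1) and higher in Touchdome than in HF (0.38, adjusted p = 0.0291). Frmd8, whose product stabilizes the iRhom partners of ADAM17, was called in the same directions (-0.53, edgeR adjusted p = 0.0048, and 0.43, adjusted p = 0.0215). For both genes the Touchdome and HF call was lost without Touchdome replicate 1, Touchdome replicate 2, HF replicate 1 or HF replicate 3, and all 4 calls were lost on the TPM scale. The iRhom genes differed in opposite directions in HF against IFE: Rhbdf2 by 0.53 (edgeR adjusted p = 0.0185, lost without IFE replicate 1, HF replicate 1 or HF replicate 2) and Rhbdf1 by -0.35 (0.0222, lost without IFE replicate 3 or HF replicate 2 and on the TPM scale). Timp3, an inhibitor of metalloproteases, was higher in Touchdome than in HF (0.59, edgeR adjusted p = 0.0236, lost without Touchdome replicate 3, HF replicate 1 or HF replicate 2 and on the TPM scale). Adam15 was lower (-0.34, edgeR adjusted p = 0.0392, lost without Touchdome replicate 1, Touchdome replicate 3, IFE replicate 3 or any HF library and on the TPM scale). Between Touchdome and IFE, Timp3 differed by 0.25 and Rhbdf1 by -0.25, neither called.

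Feedback inhibitors of the pathway included large differences between HF and the other populations. Of 18 tested, 8 were called higher and 2 lower in HF than in IFE, beside 17.1% and 16% of all genes, with a median log2 fold change of 0.35 over the list. In Touchdome against HF 1 was called higher and 6 lower, beside 11.8% and 12.8%, with a median of -0.56, and the 1 higher became 2 without Touchdome replicate 3 or IFE replicate 2. Spry4, a Sprouty inhibitor of RAS activation, was measured at 0.703, 0.0894 and 1.91 CPM in Touchdome, at 0.105, 0.281 and 0.492 in IFE and at 10.2, 11.2 and 10.5 in HF. Dusp4, a phosphatase of ERK, was measured at 0.512, 1.16 and 2.49 in Touchdome, at 1.32, 0.844 and 0.682 in IFE and at 9.87, 11.8 and 14.3 in HF. Every HF library lay above all 6 others for both genes, and the Touchdome and IFE libraries overlapped. Spry4 was 33.9-fold higher in HF than in IFE (log2 fold change 5.08, edgeR adjusted p = 0.000199) and 11.7-fold lower in Touchdome than in HF (-3.55, adjusted p = 0.002). Dusp4 was 12.6-fold higher in HF than in IFE (3.66, edgeR adjusted p = 9.45e-05) and 8.74-fold lower in Touchdome than in HF (-3.13, adjusted p = 0.000446).

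Other feedback genes changed with smaller folds. Spred1, another inhibitor of RAS signalling, was lower in Touchdome than in HF (log2 fold change -0.82, edgeR adjusted p = 0.000353). Its relative Spred3 was higher in HF than in IFE (3.15, edgeR adjusted p = 0.00022), as was Socs5 (0.88, adjusted p = 0.000293), an inhibitor linked to turnover of EGFR. Cblb, a ubiquitin ligase that acts on activated receptors, went the other way and was higher in Touchdome than in HF (0.97, edgeR adjusted p = 0.0014). All of these calls, and those of Spry4 and Dusp4, were kept in every setting tried. The most abundant members of the list were not called between Touchdome and IFE: the log2 fold change was 0.13 for Lrig1, a membrane inhibitor of ErbB receptors that marks follicle stem cells, and -0.49 for Errfi1, which encodes the EGFR inhibitor MIG6. With the replicate block 1 gene of the list was called lower in Touchdome than in IFE, beside 0.445% of all genes. It was the Sprouty gene Spry1 (-0.69, edgeR adjusted p = 0.0468).

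**Figure D5:**
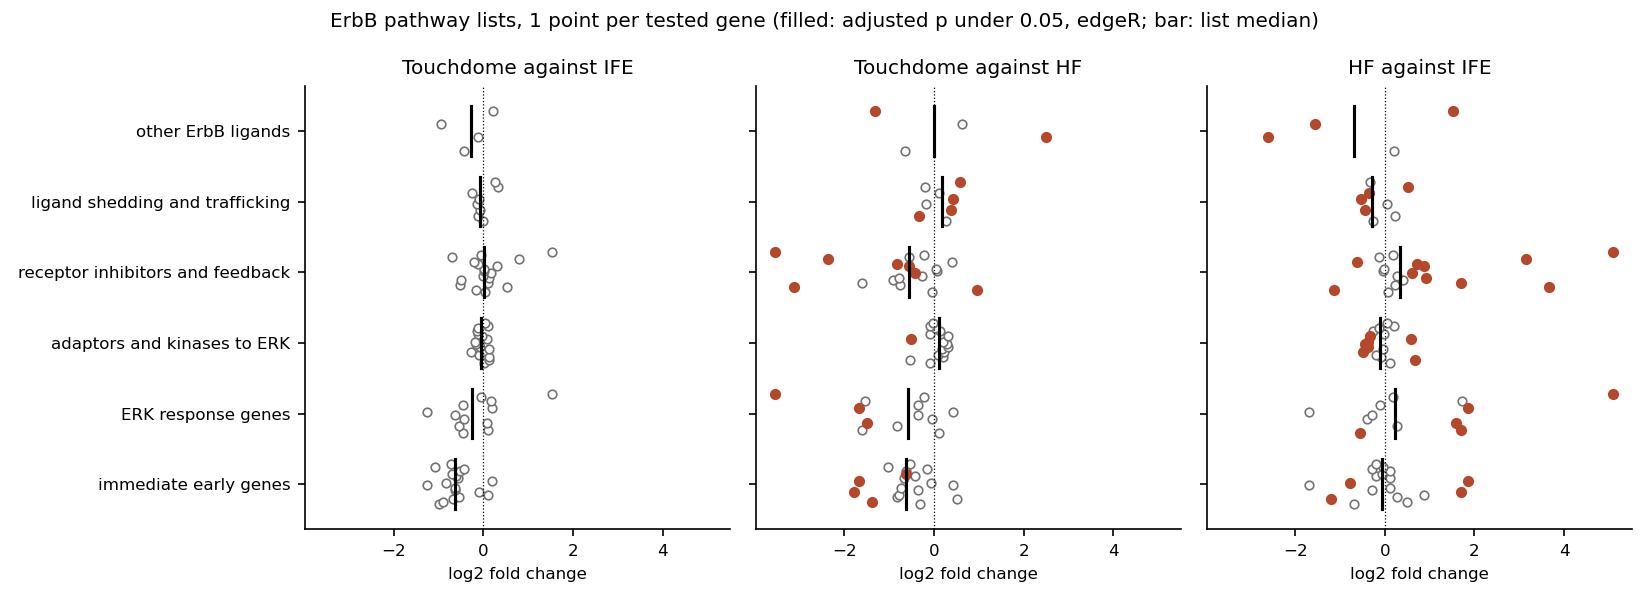
Log2 fold changes of every tested gene in 6 lists of ErbB pathway genes in the 3 comparisons, with filled symbols for an edgeR adjusted p under 0.05 and a bar at each list's median, in the fit without the replicate block. No gene is filled in Touchdome against IFE, and the inhibitor and feedback list has 8 genes called higher and 2 lower in HF against IFE.

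The adaptors and kinases that lead to ERK were called with small fold changes. Of 16, 2 were called higher and 5 lower in HF than in IFE, beside 17.1% and 16% of all genes, and Touchdome against HF gave 0 higher and 1 lower, beside 11.8% and 12.8%. Mapk3, which encodes ERK1, was higher in HF than in IFE (log2 fold change 0.59, edgeR adjusted p = 0.0055). Mapk3 was also lower in Touchdome than in HF (-0.52, edgeR adjusted p = 0.0159), a call lost without Touchdome replicate 1 or HF replicate 2. Map2k2, a kinase that activates ERK, was lower in HF than in IFE (-0.44, edgeR adjusted p = 0.00416), as was Hras (-0.50, adjusted p = 0.0103). The Map2k2 and Hras calls were lost on the TPM scale, and the 5 lower became 3 without HF replicate 1 and 2 without HF replicate 3. Ptpn11, which encodes the phosphatase SHP2 and was among the highest of the list, differed by -0.12 between Touchdome and IFE and was not called.

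Of 12 genes that respond to ERK, 4 were called higher and 1 lower in HF than in IFE, beside 17.1% and 16% of all genes, and Touchdome against HF gave 0 higher and 3 lower, beside 11.8% and 12.8%. Etv4, an ETS transcription factor induced by ERK, was higher in HF than in IFE (log2 fold change 1.58, edgeR adjusted p = 0.000101), and Touchdome was below HF (-1.49, adjusted p = 0.000275). Ier3 was called in the same directions (1.85, edgeR adjusted p = 0.00566, and -1.66, adjusted p = 0.0127). Ccnd1, the gene for cyclin D1, was lower in HF than in IFE (-0.56, edgeR adjusted p = 0.00978), a call lost on the TPM scale. Without Touchdome replicate 3 the count lower in Touchdome than in HF was 6 in place of 3.

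Of the 18 immediate early genes, 2 were called higher and 2 lower in HF than in IFE, beside 17.1% and 16% of all genes, and Touchdome against HF gave 0 higher and 4 lower, beside 11.8% and 12.8%. The last count moved between 1 and 12 when single libraries were left out: it was 12 without Touchdome replicate 3, 2 without HF replicate 2, and 1 without Touchdome replicate 1, Touchdome replicate 2, HF replicate 1 or HF replicate 3. In HF against IFE the count higher was 1 without IFE replicate 2, IFE replicate 3, HF replicate 1 or HF replicate 3, and the count lower was 1 without IFE replicate 1, IFE replicate 3, HF replicate 1 or HF replicate 2. Dusp1, which encodes a phosphatase of the stress kinases, was lower in HF than in IFE (log2 fold change -1.19, edgeR adjusted p = 0.000927), as was Ier2 (-0.77, adjusted p = 0.0151). Egr3 was higher in HF than in IFE (1.69, edgeR adjusted p = 0.0242) and lower in Touchdome than in HF (-1.79, adjusted p = 0.0257). Jund (-0.63, edgeR adjusted p = 0.0335) and Btg2 (-1.39, adjusted p = 0.0437) were also lower in Touchdome than in HF. Each call of Ier2, Egr3, Jund and Btg2 was lost in 5 to 8 of the 19 settings. Fos and Egr1 had log2 fold changes of -0.64 and -0.55 between Touchdome and IFE (edgeR adjusted p = 0.356 and 0.530 without pairing), and Fosb of -0.64. With the replicate block, 6 of the 18 were called lower in Touchdome than in IFE, beside 0.445% of all genes. Among them were Nr4a1 (-1.10, edgeR adjusted p = 0.00189), Fosl1 (-1.24, adjusted p = 0.00365) and Ier2 (-0.84, adjusted p = 0.0105). With only Touchdome and IFE in the blocked fit Fos was also called (-0.64, edgeR adjusted p = 0.0401).

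Levels of other genes followed those of the members across the 9 libraries, as a description that shares the same 3 populations and normalization. The genes most like Epgn were Zc3h12a, Ltb4r2 and Wee1 (Pearson r = 0.986, 0.986 and 0.985 of log2 CPM). Zc3h12a, which encodes an RNase that degrades inflammatory transcripts, averaged 71.2 ± 5.65 CPM in Touchdome, 97.4 ± 14.2 in IFE and 35.7 ± 4.16 in HF. Those most like Egfr were Cwh43, Mgat4a and Sh3pxd2b (r = 0.988, 0.984 and 0.982), of which Mgat4a, a glycosyltransferase gene, averaged 8.05, 7.76 and 22.4 CPM. Those most like Erbb3 were Exph5, Gm43127 and Pml (r = 0.983, 0.983 and 0.978). Exph5, which encodes a Rab effector of keratinocytes, averaged 93.4 ± 7.57 CPM in Touchdome, 96.2 ± 29.9 in IFE and 37.2 ± 6.59 in HF.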

How the data were processed

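The authors deposited 1 table for the series with expected counts and TPM per gene and library. Expected (estimated) counts deposited by the authors are unscaled, and 92.5% to 94.6% of a library's values were whole, so a read matching several genes was split. The TPM values deposited by the authors are scaled by transcript length and carry no depth. STAR 2.7.9a, RSEM 1.3.3, DESeq2 1.38.2 and build mm39 are named in the submitters' processing notes, with no settings or strand stated, so overlapping and antisense genes are uncertain. Symbols were matched by identifier for 52081 of 55357 rows, and rows with no symbol held 0.673% to 2.13% of a library's counts. Because the reference build differs from mm39, coordinates are given for the printed RefSeq windows only, which 7 of the 10 members had.

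Expected counts were rounded, filtered with filterByExpr (minimum count 10, total 15), normalized by TMM and tested in a single fit over 9 libraries with edgeR 4.0.16 (quasi-likelihood, robust; R 4.3.3). Adjusted p-values are Benjamini-Hochberg values over 15046 genes, and calls are at 0.05. SE is the log2 fold change divided by the square root of F, and intervals are 95%. CPM uses the TMM-scaled library sizes, and 3 counts were worth 0.114 to 0.316 CPM. Alternatives used DESeq2 1.42.0, limma 3.58.1 and other settings, 17 per result, with 2 more added after the data were seen and another for Touchdome against IFE. The code was tested on simulated data. Replicate numbers come from the sample titles, and the labels do not say that they mark a shared animal or day. Deviations from the group means correlated for same-numbered Touchdome and IFE libraries (r from 0.146 to 0.203 over 3 pairs, against -0.128 to -0.0406 over 6 pairs of unlike number), so the numbers were taken to pair these groups. A group's deviations sum to 0 for each gene, so positive r for the same number forces negative r for unlike numbers. The negative values are therefore no separate evidence of pairing. The numbers did not pair either group with HF (r from -0.0257 to 0.0701 over 3 pairs for Touchdome and from -0.00828 to 0.0592 for IFE), though the block over all 9 libraries applies them there too. Libraries of a group differed beyond sampling noise (chi-square per degree of freedom 16.7 to 71.3). All 10 members were described. Per list and comparison the text names at most 4 called genes with the smallest p or, where none passed, the 2 with the highest mean CPM, and for the 3 members with the smallest F-test p the 3 genes most alike (mean of at least 1 CPM). A gene that this rule would name is not reported here. Neighbouring genes of Epgn, and listed genes called with the replicate block, were added with their values known. The members and lists were chosen with earlier results of these data known.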

Additional observations from a re-analysis of the deposited data

How the results depend on the processing

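Depth limits Erbb4, Ereg and Btc most, and 3 libraries a group limit every test. Of 522 fold changes of members under alternatives, 469 kept their direction and side of the threshold, 14 lost a call, 14 gained one and 25 changed sign, none of the latter with a call in the main test. The settings chosen after the data were seen were those with replicates 1 and 3 only, with limma on log2 CPM, and with the replicate block and only Touchdome and IFE. The cause was not tested except where stated.

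With the replicate block over all 9 libraries, 1 member was called lower in Touchdome than in IFE (Epgn, -0.94, edgeR adjusted p = 0.0182), and all genes called were 282 higher and 67 lower, beside 184 and 12 without it. With the replicate block and only these groups in the fit, 2 members were lower, and all genes called were 372 higher and 134 lower. The block changed no call of a member in the comparisons with HF, where the numbers did not pair the samples.

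In Touchdome against IFE, all genes called higher were 446 with DESeq2, 100 with only these groups in the fit, 97 on log2(TPM + 1), 121 with replicates 1 and 3 only, and 105 to 216 with single libraries left out. Those called lower were 84 with DESeq2, 49 with no filter, 5 with only these groups, 0 on both TPM scales, 37 with replicates 1 and 3 only, and 4 to 29 with single libraries left out. For members in Touchdome against HF, the TPM scales called 1 higher and 0 lower, and 2 to 3 were higher with single libraries left out. For members in HF against IFE, 2 were higher with DESeq2, with only these groups, with replicates 1 and 3 only and with limma on log2 CPM, 0 on the TPM scales, and 1 to 2 with single libraries left out. Lower were 1 on the TPM scales, 4 with replicates 1 and 3 only, and 2 to 3 with single libraries left out. All genes called lower in HF than in IFE were 1202 and 1209 on the TPM scales with pseudocounts 1 and 0.1.

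Signs changed as follows. In Touchdome against IFE, Egfr was 0.062 and 0.064 on the TPM scales and -0.21 to 0.031 with single libraries left out, Erbb3 was -0.079 with replicates 1 and 3 only and -0.094 to 0.10 with single libraries left out, and Btc ran from -0.049 to 1.29. In Touchdome against HF, with single libraries left out, Areg ran from -0.70 to 0.038, Ereg from -0.26 to 0.32, Hbegf from -0.26 to 0.40 and Tgfa from -0.26 to 0.011. With replicates 1 and 3 only, Areg was 0.10 and Tgfa was 0.10. Hbegf was -0.090 with the replicate block, -0.49 and -0.52 on the TPM scales and -0.10 with limma on log2 CPM. In HF against IFE on the TPM scales, Erbb2 was 0.016 and 0.017 and Hbegf was 0.0075 and 0.012. Among the pathway genes in Touchdome against IFE, Nrg4 was -0.38 with replicates 1 and 3 only and -0.089 to 0.47 with single libraries left out, Lrig1 ran from -0.28 to 0.36, and Ptpn11 was 0.14 on both TPM scales.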

Other observations

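Tnc and Dcn encode matrix proteins that are known to bind EGFR at low affinity, and both were chosen here with their values known. The Cre driver carries the name of Tnc, so the high Tnc level in Touchdome is tied to the sort. Tnc was measured at 200.4, 281.7 and 288 CPM in Touchdome, at 6.10, 1.13 and 7.16 in IFE and at 40.6, 56.9 and 54 in HF. It was also higher in HF than in IFE (log2 fold change 3.33, edgeR adjusted p = 0.00137), and both were sorted as negative for the reporter. Dcn was measured at 23.9, 25.3 and 16.4 CPM in Touchdome, at 0.316, 0 and 0.0379 in IFE and at 0, 0 and 0.0655 in HF. All 3 Touchdome libraries were higher than the other 6 for both genes. Dcn is also among the 6 fibroblast markers, and their part in its level was not tested.

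On a scale where IFE is 0 and HF is 1 in log2 CPM, the Touchdome mean of Epgn lay at 0.25, with the libraries at 0.10, 0.33 and 0.32. Epgn was the single member in the set of 2703 genes used for this scale, which differed between HF and IFE by at least 1 on the log2 scale and were called. The median position of those genes was 0.208, with quartiles of 0.0648 and 0.379.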
